A study of Mus musculus with 7 samples.

Results

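The genes that hold the oocyte at prophase of meiosis, release it and then stop it at metaphase were followed in single germinal vesicle (GV) oocytes with and without the H3K4 methyltransferase SETD1B. The list held 10 genes: Gpr3, Adcy3, Pde3a, Wee2, Cdc25b, Ccnb1, Ccnb2, Cdk1, Mos and Fbxo43. A gene was taken from the expression table where the table named it for a transcript on the gene's own strand, and the transcript with the highest mean was used where there were several. This found 8 of the 10 genes among 33437 oocyte transcripts. The table gave the transcripts of Pde3a and Cdc25b the names of genes on the opposite strand, Gm28523 and Spef1. These 2 genes were located by their annotated span (GENCODE M21) and are described beside the others, but they do not enter the counts over the 8.

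Transcription was measured by RNA-seq of 7 libraries, each from 1 GV oocyte of a C57BL6 female aged 21 days (the study's methods give the background as C57BL/6OlaHsd). In 4 libraries, Setd1b cKO, the donor female was Setd1b floxed/floxed and Gdf9-Cre positive, and in 3 libraries, Setd1b WT, it was Setd1b floxed/floxed and Gdf9-Cre negative. Both genotypes by the labels carried the floxed gene, and Gdf9-Cre acts in the oocyte from the early stages of its growth, so that the deletion precedes the stage sampled. The study's methods also allow Gdf9-Cre females with an intact Setd1b allele as WT, but the labels give all 3 as Cre negative. Whether any oocytes came from the same female is not in the labels, and p-values measure the spread between these oocytes.

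A fully grown oocyte stays at the GV stage because cyclic AMP keeps protein kinase A active, which keeps CDK1 with its B-type cyclins (maturation promoting factor) phosphorylated and inactive through the WEE2 kinase. When PDE3A breaks cyclic AMP down, CDC25B removes the inhibitory phosphates, CDK1 is activated and the nuclear envelope breaks down. MOS, through the MAP kinase cascade, and FBXO43 (EMI2), an inhibitor of the anaphase promoting complex (APC/C), then hold the egg at the second metaphase. The mRNAs of these proteins are stored in the GV oocyte, and many are translated only after meiosis resumes, so an mRNA level at this stage is not a protein level.

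The libraries held 8582493 to 12972366 mapped reads, and the values are RPM, reads of a transcript relative to the mapped reads of its library (1 RPM is 1 read in 1000000). Between 13.2% and 16.4% of the mapped reads of a cKO library, and between 9.57% and 9.90% of a WT library, lay outside the listed transcripts (exact permutation test, two-sided p = 0.0286, the smallest that 35 assignments allow). The first principal component (39.6% of the variance) separated the genotypes. The second (31.0%) set cKO 4 and WT 3 apart from the other 5 libraries. Setd1b was also located by span, on a transcript that the table names Gm26745, which overlaps an opposite-strand transcript with a mean of 10.5 RPM whose reads may be counted in it. This transcript had 2.68 to 16.7 RPM in the cKO and 8.61 to 17.7 RPM in the WT libraries. Its log2 fold change was -0.61 (95% interval -1.70 to 0.48), with a limma adjusted p of 0.533, but that transcript spans the whole annotated gene and does not isolate the floxed segment. The value was -0.15 without cKO 4. Of 14 oocyte markers with a transcript, 9 had at least 100 RPM in every library, and Sohlh1 was at 0 in all of them. Their summed level was 22077 ± 461 RPM (SD, n = 4) in the cKO and 26380 ± 668 RPM (SD, n = 3) in the WT libraries, without overlap (exact permutation p = 0.0286). Of 16 markers of granulosa and other ovarian cells, 8 stayed under 1 RPM in every library, among them Amh and Foxl2. Their summed level was 83.9 to 106 RPM in the cKO and 63.6 to 88.7 RPM in the WT libraries (exact permutation p = 0.114), most of it from Nr5a2 and Cyp19a1. Nr5a2 had 32.5 to 50.8 RPM in the cKO and 27.4 to 28.3 RPM in the WT libraries, without overlap. Inha had 7.03, 11.4, 13.2 and 0.583 RPM in cKO 1 to 4 and 0.810, 4.32 and 0 RPM in WT 1 to 3. Of the 6 such markers tested, 4 had a log2 fold change above 0 and 2 below.

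Among the 8 genes, 1 fell in the Setd1b cKO oocytes and 0 rose. The threshold was a limma Benjamini-Hochberg adjusted p under 0.05 over all 18179 transcripts tested, with a change of more than 2-fold. By the same threshold 1.95% of all transcripts tested fell and 3.76% rose, so that a single gene in 8 is too small a count to set apart from this background. The gene that fell was Mos, the kinase that switches on the MAP kinase cascade in the oocyte. Pde3a and Cdc25b did not pass. At an unadjusted limma p under 0.05 the counts were also 1 lower and 0 higher, beside 7.52% and 14.2% of all transcripts tested. With voom on the recovered reads they were again 1 and 0, beside 1.8% and 2.44%. The median log2 fold change was -0.25 over the 8 genes and 0.12 over all transcripts tested.

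**Figure D1:**
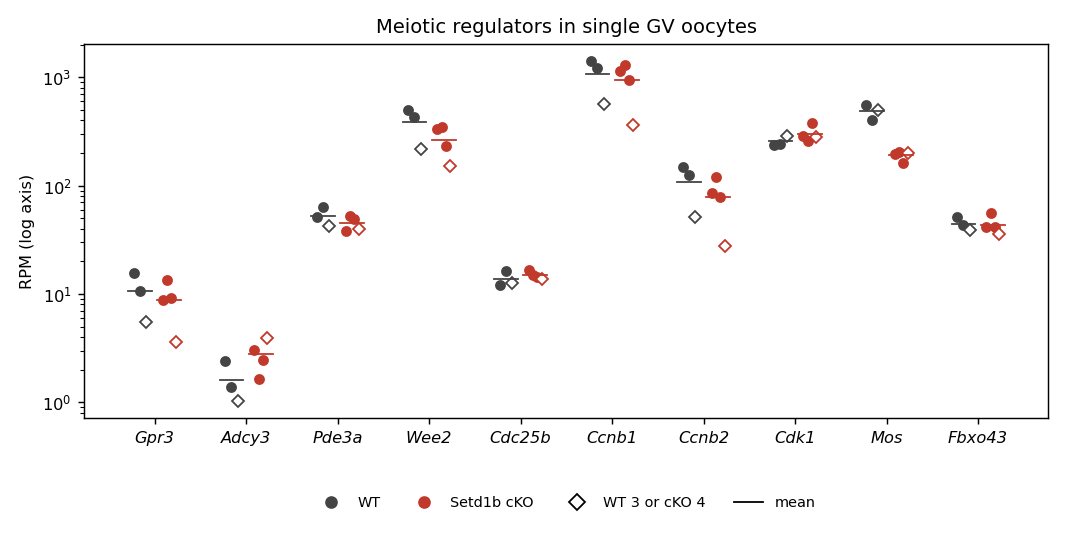
RPM (log axis) of the 10 genes in each library, with 1 point per oocyte, WT in grey and Setd1b cKO in red, a bar at each genotype's mean, and open diamonds for WT 3 and cKO 4. The 4 cKO points of Mos lie below its 3 WT points, and the diamonds of Gpr3, Wee2, Ccnb1 and Ccnb2 are the lowest points of their genotype.

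Mos had 196, 204, 163 and 201 RPM in cKO 1 to 4 and 551, 406 and 500.2 RPM in WT 1 to 3. The highest cKO library was below the lowest WT library, and the WT libraries differed more among themselves than the cKO libraries did. The mean was 191 ± 19.0 RPM (SD, n = 4) in the cKO and 486 ± 73.3 RPM (SD, n = 3) in the WT, a cKO level that was 0.393 of the WT level. The log2 fold change was -1.34 ± 0.20 (SE; 95% interval -1.79 to -0.88) with a limma adjusted p of 0.00581. Of the 8 genes, Mos alone had every cKO library below every WT library, as did 7.14% of all transcripts tested, and none had every cKO library above every WT library, as did 13.2%. The call held in all 22 alternatives run, with a log2 fold change between -1.49 and -1.24 and an adjusted p between 0.000669 and 0.0371, the highest without WT 1. Leaving out both cKO 4 and WT 3 gave -1.34 with an adjusted p of 0.000669.

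The Mos transcript was deeply read, with 1726 to 2479 reads in the cKO and 5269 to 6800 reads in the WT libraries. It spans chr4:3860066-3874476 on the minus strand (GRCm38), far more than the annotated single-exon gene at chr4:3870657-3872105. It starts 2371 bases upstream and ends 10591 bases downstream of the annotation. Reads in these flanks may count as Mos, but which parts of the flanks are exons is not given. The 2 other listed transcripts that overlap it lie on the opposite strand and had means of at most 1.08 RPM. The summed level of the oocyte markers was also lower in the cKO, by less than that of Mos. Its part in the Mos result was not tested.

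The cDNA was primed on poly(A) tails, so the annotated 3′ ends of the mRNAs are shown for Mos and for 3 abundant mRNAs that were low in cKO 4 and WT 3, as described with their values. The 30-base stretches come from the last 100 bases of the longest protein-coding GENCODE M21 transcript of each gene (GRCm38, all on the strand of the gene), and the capitals mark the polyadenylation signal, AATAAA or ATTAAA on the sense strand.
Mos, chr4:3870661-3870690, minus strand: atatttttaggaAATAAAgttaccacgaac
Ccnb1, chr13:100778656-100778685, minus strand: ctttatgttgctAATAAAcatagttttcga
Ccnb2, chr9:70407693-70407722, minus strand: gtattgaaggaaAATAAAgctattgatcta
Wee2, chr6:40466776-40466805, plus strand: cagatcattgtaAATAAAgattttatctta

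Of the 10 genes, 9 had such a signal in that window, as did 74.9% of 21852 protein-coding genes, and Pde3a had none. The oocyte transcripts of Pde3a, Cdk1 and Adcy3 stop 5008, 3178 and 2059 bases before the annotated ends, so they do not reach these windows. In Mos the signal began 22 bases before the annotated end, which lies 10591 bases inside the oocyte transcript of the table. The oocyte transcript of Wee2 likewise ends 4051 bases beyond the annotated end, so the Wee2 stretches shown are not at its 3′ end. In Ccnb2 it ends 9 bases beyond. In Ccnb1 the annotated end and the end of the table's transcript were the same base. Cytoplasmic polyadenylation elements, the U-rich sites bound by CPEB that control the translation of stored oocyte mRNAs, were searched on the sense strand as TTTTAT or TTTTAAT. They were present in the window of 2 of the 10 genes, Wee2 and Adcy3, and of 16.6% of protein-coding genes. In Wee2 the upstream element is in capitals.
Wee2, chr6:40466756-40466785, plus strand: ctttttaacataTTTTAATccagatcattg

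The window in the annotated transcript of Mos held neither spelling, which says only that these letters are not in its last 100 bases.

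**Figure D2:**
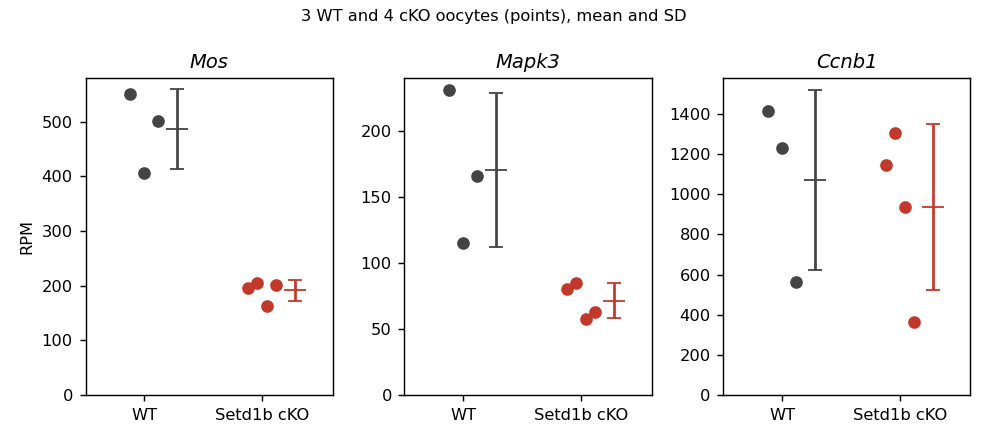
RPM of Mos, Mapk3 and Ccnb1 in 3 WT (grey) and 4 Setd1b cKO (red) oocytes, with the mean and SD beside the points and each axis starting at 0. The genotypes do not overlap for Mos (163 to 204 against 406 to 551 RPM) or Mapk3, whereas those of Ccnb1 do.

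The genes that set the level of cyclic AMP did not pass the test. Gpr3, the constitutively active receptor that keeps the oocyte's cyclic AMP high, had 8.81, 13.5, 9.23 and 3.61 RPM in cKO 1 to 4 and 15.7, 10.7 and 5.52 RPM in WT 1 to 3. The genotypes overlapped, and cKO 4 and WT 3 were the lowest of each. This gave a log2 fold change of -0.26 (95% interval -1.21 to 0.68; limma adjusted p = 0.789), an interval that includes a fall of 2-fold. The Gpr3 transcript starts 8257 bases upstream of the annotated gene and overlaps an opposite-strand transcript with a mean of 166 RPM. The strand of the counting is not given, so reads of that neighbour may be counted in Gpr3.

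Adcy3, an adenylyl cyclase that makes cyclic AMP in the oocyte, had 3.07, 1.65, 2.44 and 3.96 RPM in cKO 1 to 4 and 2.43, 1.39 and 1.03 RPM in WT 1 to 3. These values rest on 11 to 34 reads per library. The genotypes overlapped, and the log2 fold change was 0.53 (95% interval -0.18 to 1.24; limma adjusted p = 0.386). At this level the value depended on the pseudocount, with 0.23 at 5 RPM and 0.80 for the log2 values as deposited, and it was 0.22 without cKO 4 and WT 3. The transcript is a fragment, chr12:4207479-4211466, which holds 1086 of the 6246 exonic bases of the gene. A second fragment on the same strand was at 0 in all 7 libraries. A further transcript that the table names Adcy3 lies on the opposite strand across the end of the gene and had 79.2 to 131 RPM. It was not used, and the level of Adcy3 itself is known only from the fragment.

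Pde3a, the phosphodiesterase whose activity ends the arrest, had 38.2, 52.8, 49.2 and 40.2 RPM in cKO 1 to 4 and 51.6, 63.5 and 42.5 RPM in WT 1 to 3. The genotypes overlapped between 42.5 and 52.8 RPM. Its log2 fold change was -0.21 (95% interval -0.71 to 0.29; limma adjusted p = 0.662), so that a change of 2-fold in either direction lay outside the interval. The transcript holds 7729 of the 12737 exonic bases of the gene and stops 5008 bases before its annotated end. The values cover only that part of Pde3a.

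The kinase and the phosphatase that act on CDK1 did not pass the test either. Wee2, the oocyte kinase that adds the inhibitory phosphate, had 336, 345, 232 and 153 RPM in cKO 1 to 4 and 500.3, 432 and 218 RPM in WT 1 to 3. The 2 highest libraries were WT 1 and WT 2, and WT 3 lay inside the cKO range. The mean was 267 ± 91.4 RPM (SD, n = 4) in the cKO and 383 ± 147 RPM (SD, n = 3) in the WT. For Wee2 the log2 fold change was -0.51 (95% interval -1.29 to 0.28; limma adjusted p = 0.462). It ran from -0.27 (without cKO 4) to -0.87 (without WT 3) when single libraries were left out, and without both, chosen after the values were seen, the adjusted p was 0.0657.

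Cdc25b, the phosphatase that starts resumption, had 16.7, 15.0, 14.3 and 13.9 RPM in cKO 1 to 4 and 12.1, 16.4 and 12.7 RPM in WT 1 to 3. All 7 libraries lay close together. Its log2 fold change was 0.12 (95% interval -0.38 to 0.63; limma adjusted p = 0.820), equal to 2 decimals to the median of all transcripts tested.

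The B-type cyclins varied widely between oocytes of 1 genotype. Ccnb1, the main cyclin of maturation promoting factor, had 1146, 1307, 935 and 362 RPM in cKO 1 to 4 and 1416, 1232 and 562 RPM in WT 1 to 3. Its lowest libraries were cKO 4 and WT 3, and the other 5 libraries lay between 935 and 1416 RPM. The mean was 938 ± 413 RPM (SD, n = 4) in the cKO and 1070.2 ± 449 RPM (SD, n = 3) in the WT. The log2 fold change was -0.24 (95% interval -1.24 to 0.77; limma adjusted p = 0.825).

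Ccnb2, the second B-type cyclin of the oocyte, had 85.0, 121, 78.1 and 27.5 RPM in cKO 1 to 4 and 147, 125 and 51.8 RPM in WT 1 to 3. Again cKO 4 and WT 3 were lowest, and the genotypes overlapped. Its log2 fold change of -0.51 had a wide interval (95% interval -1.59 to 0.56; limma adjusted p = 0.607). For both cyclins the interval includes a fall of 2-fold, which was not detectable with this spread. Single libraries moved the Ccnb2 value from -0.083 (without cKO 4) to -0.97 (without WT 3).

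Cdk1, the catalytic subunit, had 290.0, 260.3, 382 and 279.6 RPM in cKO 1 to 4 and 238, 244 and 289.9 RPM in WT 1 to 3. In contrast to the cyclins, cKO 4 lay among the other cKO libraries and WT 3 was the highest WT library. This gave a log2 fold change of 0.22 (95% interval -0.24 to 0.69; limma adjusted p = 0.605). The Cdk1 transcript starts 16449 bases upstream of the annotated gene and stops 3178 bases before its annotated end.

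Fbxo43, the APC/C inhibitor of the metaphase arrest, had 41.2, 55.4, 41.4 and 35.8 RPM in cKO 1 to 4 and 51.3, 43.4 and 39.1 RPM in WT 1 to 3. The genotypes overlapped almost completely. Its log2 fold change was -0.05 (95% interval -0.54 to 0.45; limma adjusted p = 0.937). The difference between the changes of Mos and Fbxo43 was not tested.

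**Figure D3:**
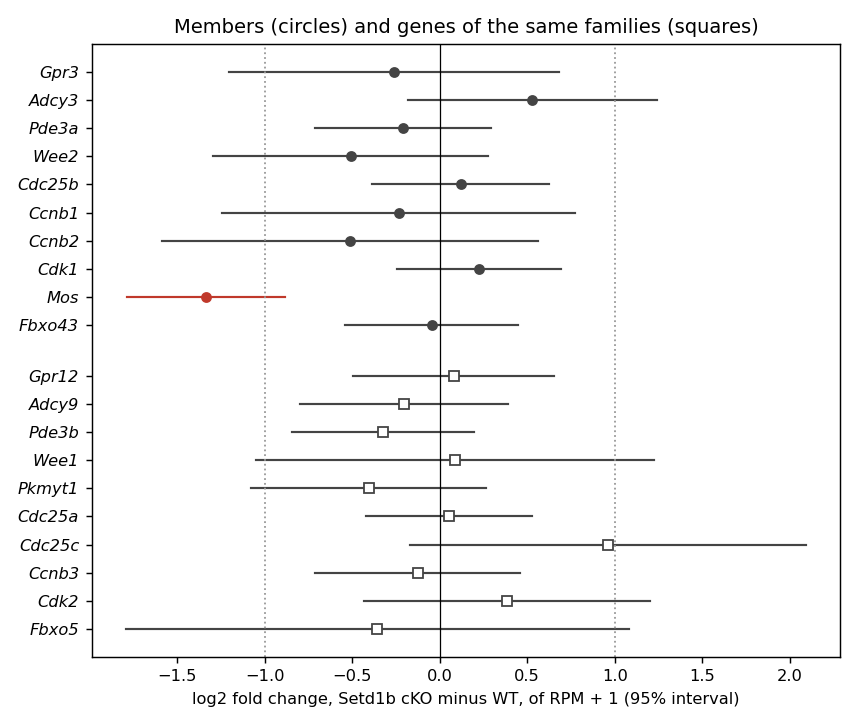
Log2 fold change of RPM + 1, Setd1b cKO minus WT, with its 95% interval from limma, for the 10 genes (filled circles) and for 10 genes of the same families (open squares), with red for a gene past the threshold and dotted lines at a change of 2-fold. Mos (-1.34) is the only red symbol, and its interval is the only one that does not reach 0.

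Levels between genes were compared as RPM per kb of annotated exon inside each transcript. In the WT libraries Mos was highest, at 335 ± 50.6 RPM per kb (SD, n = 3), followed by Ccnb1 at 254 ± 107 RPM per kb, Cdk1 at 147 ± 16.2 RPM per kb and Wee2 at 127 ± 48.6 RPM per kb. The ranges of neighbours in this order overlapped down to Ccnb2 at 70.5 ± 32.6 RPM per kb. Fbxo43 followed at 11.1 ± 1.54 RPM per kb, with its range apart from Ccnb2 above and from Pde3a below. Pde3a, Gpr3 and Cdc25b were at 6.80, 3.89 and 3.69 RPM per kb, where the range of Gpr3 overlapped those of both others but Pde3a lay above Cdc25b, and Adcy3 was lowest at 1.49 RPM per kb. In the cKO libraries the means of the highest were Ccnb1 at 222 ± 97.9 RPM per kb, Cdk1 at 173 ± 30.8 RPM per kb and Mos at 132 ± 13.1 RPM per kb (SD, n = 4). The cKO range of Ccnb1, 85.8 to 309.9 RPM per kb, overlapped those of Cdk1 and Mos, and in cKO 4 Ccnb1 was below both. The exons of the oocyte transcripts are not in the table, and over the exons of the whole gene Cdk1 came to 52.1 RPM per kb in the WT, below Ccnb2, and to 61.4 RPM per kb in the cKO, below Mos and Wee2. Reads in any exons outside the annotated gene enter a level, but the length of such exons does not. The Mos transcript extends 2371 bases upstream and 10591 bases downstream of 1449 annotated bases, so its levels and ranks may be too high. That of Cdk1, which starts 16449 bases upstream, has the same limit.

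Ratios per kb within a library put 2 partners of the pathway on the same scale. Ccnb1 exceeded Ccnb2 by a factor of 4.89, 3.93, 4.35 and 4.78 in cKO 1 to 4 and of 3.49, 3.59 and 3.94 in WT 1 to 3. The 2 cyclins therefore kept nearly the same proportion in cKO 4 and WT 3, where both were low. The ratio of Cdc25b to Wee2 was 0.0404, 0.0352, 0.050 and 0.0735 in the cKO and 0.0197, 0.0309 and 0.0474 in the WT libraries, highest in cKO 4 and, within the WT, in WT 3. The ratio of Pde3a to the Adcy3 fragment was 1.43 to 4.50 in the cKO and 2.98 to 6.43 in the WT libraries. Each of the 3 ratios overlapped between genotypes, and they are given without a test.

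The libraries cKO 4 and WT 3 shared a pattern across these genes that did not follow the genotype. On the log2 scale of RPM + 1, Ccnb2 was 1.72 units lower in cKO 4 than in the mean of cKO 1 to 3 and 1.37 units lower in WT 3 than in the mean of WT 1 and 2. For Ccnb1 the differences were 1.63 and 1.23 units, for Gpr3 1.30 and 1.10 units, and for Wee2 0.96 and 1.09 units. Of the 8 genes, 3 (Gpr3, Ccnb1 and Ccnb2) were lower by at least 1 unit in both libraries, as were 3.64% of all transcripts tested. This limit and these 2 libraries were chosen after the values were seen, and no test was made. Mos was 0.11 and 0.08 units higher in the same libraries. These were also the libraries with the fewest mapped reads of their genotype, 8582493 in cKO 4 and 10688295 in WT 3, and Ccnb1 alone had 3107 and 6010 reads in them. The part of depth in the pattern was not tested.

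**Figure D4:**
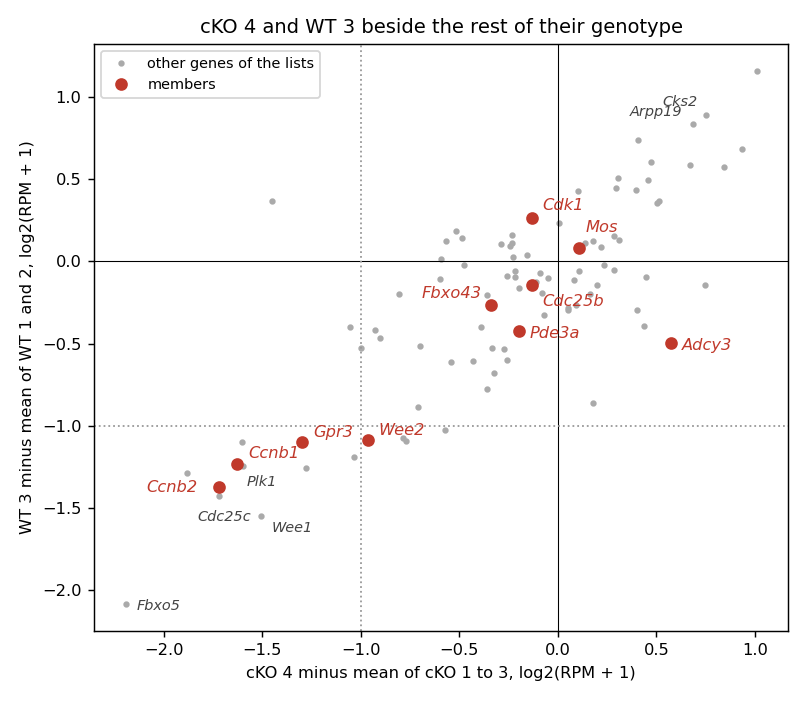
Difference of cKO 4 from the mean of cKO 1 to 3 (x axis) and of WT 3 from the mean of WT 1 and 2 (y axis), both in log2(RPM + 1), for the 10 genes (red) and the other genes of the pathway lists (grey), with dotted lines at 1 unit lower. Ccnb1, Ccnb2 and Gpr3 lie in the lower left field beside Fbxo5, Wee1, Cdc25c and Plk1, and Mos lies near 0 on both axes.

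The promoters are shown for the cyclins, which varied together, for Cdk1, which did not vary with them, and for Wee2. Each runs from 250 bases before to 50 bases after the RefSeq start (GRCm38.p6), and 7 of the 10 genes have such an entry. Capitals mark the CCAAT box, bound by NF-Y (CCAAT or its reverse complement ATTGG), and the cell cycle genes homology region (TTTGAA or TTTAAA and their reverse complements TTCAAA and TTTAAA). These elements are known from cell cycle promoters in dividing cells.
Ccnb1, chr13:100786437-100786736, minus strand: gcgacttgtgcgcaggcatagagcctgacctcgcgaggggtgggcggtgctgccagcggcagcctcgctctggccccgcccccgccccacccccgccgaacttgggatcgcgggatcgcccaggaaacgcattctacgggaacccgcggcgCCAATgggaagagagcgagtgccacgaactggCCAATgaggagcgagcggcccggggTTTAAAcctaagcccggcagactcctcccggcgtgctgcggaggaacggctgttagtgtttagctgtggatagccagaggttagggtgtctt
Ccnb2, chr9:70421505-70421804, minus strand: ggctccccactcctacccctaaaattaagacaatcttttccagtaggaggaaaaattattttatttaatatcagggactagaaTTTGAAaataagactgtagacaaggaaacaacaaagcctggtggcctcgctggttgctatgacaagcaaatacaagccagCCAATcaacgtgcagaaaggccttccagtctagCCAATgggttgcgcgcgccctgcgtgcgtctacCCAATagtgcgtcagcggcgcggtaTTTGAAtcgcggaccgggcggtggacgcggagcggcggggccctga
Cdk1, chr10:69352863-69353162, minus strand: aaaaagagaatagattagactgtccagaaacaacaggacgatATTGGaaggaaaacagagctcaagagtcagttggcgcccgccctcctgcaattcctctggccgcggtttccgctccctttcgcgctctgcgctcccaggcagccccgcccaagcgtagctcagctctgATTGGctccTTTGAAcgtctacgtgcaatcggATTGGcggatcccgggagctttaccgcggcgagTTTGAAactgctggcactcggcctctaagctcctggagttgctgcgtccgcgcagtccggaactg
Wee2, chr6:40442613-40442912, plus strand: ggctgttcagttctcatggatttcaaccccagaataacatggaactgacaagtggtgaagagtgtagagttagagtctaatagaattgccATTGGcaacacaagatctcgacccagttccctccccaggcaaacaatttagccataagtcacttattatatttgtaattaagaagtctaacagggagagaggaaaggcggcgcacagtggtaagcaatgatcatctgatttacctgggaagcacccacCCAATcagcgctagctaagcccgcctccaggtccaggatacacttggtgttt

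Ccnb1 held 2 CCAAT boxes and 1 homology region, Ccnb2 held 3 and 2, and Cdk1 held 3 and 2. Wee2 held 2 CCAAT boxes and none of the other letters. Gpr3, also low in cKO 4 and WT 3, held 1 CCAAT box and 0 homology regions in its promoter, which is not shown. All 7 genes with an entry held a CCAAT box, and 3 held a homology region. Of 32851 promoters of the same length, 37.4% held a CCAAT box, 27.6% a homology region and 10.7% both. CpG dinucleotides numbered 29 in Ccnb1, 24 in Cdk1, 19 in Ccnb2 and 5 in Wee2, beside a median of 7 over all promoters. The oocyte transcripts start 141 bases upstream of the RefSeq start in Ccnb1 and 56 bases upstream in Ccnb2. That of Wee2 starts 662 bases upstream and that of Cdk1 16475 bases upstream, so for these genes the window shown is not at the start of the oocyte transcript.

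Of 11 genes of the same families, 10 had a transcript and 0 passed the threshold in either direction, beside 1.95% lower and 3.76% higher among all transcripts tested. With 10 genes, a count of 0 is near that background. Gpr12, the receptor closest to Gpr3, had 6.79 to 10.7 RPM in the cKO and 7.77 to 8.25 RPM in the WT libraries (log2 fold change 0.08; limma adjusted p = 0.904). Adcy9, another adenylyl cyclase, and Pde3b, the second phosphodiesterase of the PDE3 family, had log2 fold changes of -0.20 (-0.066 without cKO 1) and -0.32. Wee1 and Pkmyt1, the other kinases of CDK1, had 0.09 and -0.41, with 4.08 to 20.3 RPM for Wee1 and 2.97 to 6.70 RPM for Pkmyt1 in the cKO libraries. Of the phosphatases, Cdc25a had 0.05, and Cdc25c had 0.96 (95% interval -0.17 to 2.09; limma adjusted p = 0.311), which became 0.49 without WT 3 and 1.39 without cKO 4. Ccnb3, a cyclin of the anaphase transition, had -0.13, and Cdk2 had 0.39 (0.075 without cKO 3). Fbxo5 (EMI1), the relative of Fbxo43, had -0.36, with 43.8 RPM in cKO 4 and 67.5 RPM in WT 3 against 131 to 318 RPM in the other libraries. At an unadjusted limma p under 0.05 the count was 0 as well, and it was 0 with voom. Gpr6 was not analysed here.

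In the 5 lists of other pathway genes, 84 genes were tested, of which 1 fell and 0 rose, with limma and with voom. This lies near or under the share of all transcripts, of which 1.95% fell and 3.76% rose with limma. At an unadjusted limma p under 0.05, 3 were lower and 6 higher, beside 7.52% and 14.2% of all transcripts. Of the pathway genes, 18 (such as Plk1, Btrc, Skp1a and Wee1, the last also a same-family gene) were located by span on transcripts the table names for other genes, and they enter these counts. The gene that fell was Mapk3 (ERK1), a MAP kinase that lies downstream of MOS. It had 80.2, 85.1, 57.5 and 62.5 RPM in cKO 1 to 4 and 231, 115 and 166 RPM in WT 1 to 3, without overlap. The log2 fold change was -1.21 (95% interval -1.80 to -0.62; limma adjusted p = 0.0253). This call rests on single libraries: the adjusted p was 0.0564 without cKO 1, 0.0835 without cKO 3, 0.115 without WT 1 and 0.0553 without WT 3. The direction was the same in all 22 alternatives, with a log2 fold change from -1.46 to -0.96, and 18 of them kept the call. In its list, the MAPK and cytostatic factor arm, 13 genes were tested and the median log2 fold change was -0.03, against 0.12 over all transcripts.

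None of the other 4 lists held a gene past the threshold. In the cAMP and PKA arm (19 tested) the median log2 fold change was -0.02, and its most abundant gene, Akap7, an anchor of protein kinase A, had 94.7 ± 12.2 RPM (SD, n = 4) in the cKO and 95.7 ± 8.91 RPM (SD, n = 3) in the WT. Adcy1, an adenylyl cyclase named after its values were seen, had 0.594, 2.96, 2.35 and 0.932 RPM in cKO 1 to 4 and 3.81, 5.09 and 5.15 RPM in WT 1 to 3. Its genotypes did not overlap, and the log2 fold change was -1.16 (95% interval -1.96 to -0.36), but the limma adjusted p was 0.0896 and ranged from 0.0497 to 0.249 over the alternatives. Over the same alternatives the log2 fold change of Adcy1 ran from -1.73 to -0.54. Among the CDK1 kinases, phosphatases and partners (16 tested) the median was 0.29. Cks2, the most abundant of them and the small subunit that docks CDK1 on its substrates, had 1363, 1299, 1927 and 2532 RPM in cKO 1 to 4 and 566, 738 and 1200 RPM in WT 1 to 3. Every cKO library was above every WT library. The log2 fold change was 1.11 (95% interval 0.39 to 1.83), but the limma adjusted p was 0.0734 and it ranged from 0.00197 to 0.260 over the alternatives. It was 0.0356 without WT 3. Unlike the cyclins, Cks2 was highest in cKO 4 and, within the WT, in WT 3.

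In the Greatwall and PP2A list (13 tested) the median was 0.17, and Arpp19, the Greatwall substrate that inhibits PP2A, was the most abundant with 382 ± 114 RPM (SD, n = 4) in the cKO and 392.2 ± 141 RPM (SD, n = 3) in the WT. In the list of the APC/C and its regulators (23 tested) the median was 0.10. Its most abundant gene was Skp1a, a subunit of the SCF ubiquitin ligase, with 5425 ± 667 RPM (SD, n = 4) and 5473 ± 613 RPM (SD, n = 3).

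**Figure D5:**
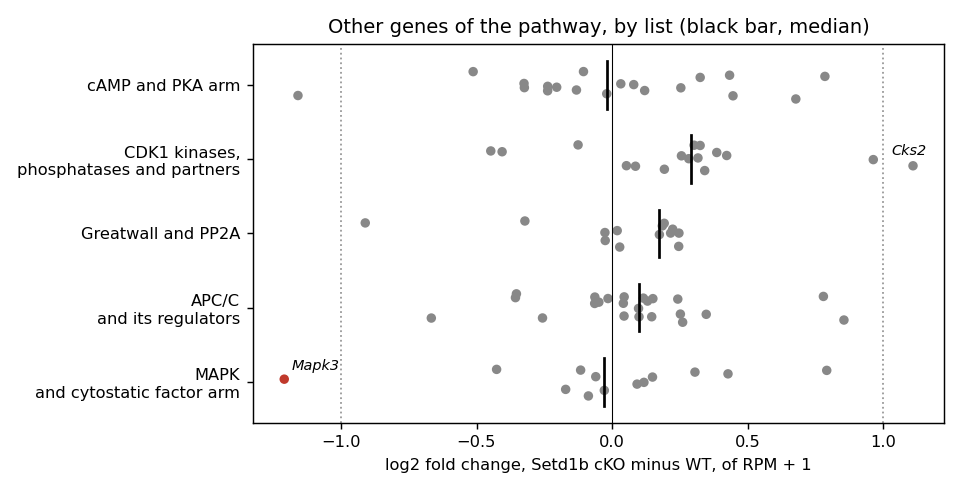
Log2 fold change of RPM + 1, Setd1b cKO minus WT, of each tested gene (1 point) in the 5 pathway lists, with a black bar at the median of each list, red for a gene past the threshold and dotted lines at a change of 2-fold. Mapk3, at -1.21, is the only red point, and Cks2, at 1.11, lies past the upper line without passing the test.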

How the data were processed

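Single GV oocytes of 21-day-old Setd1b cKO (n = 4) and WT (n = 3) females were profiled by the authors with the SMARTer Ultra Low kit. After trimming (trim galore) and alignment to GRCm38 (Hisat), reads were quantified in SeqMonk over oocyte transcripts with merged isoforms; the submitters' processing notes also name bcl2fastq 1.8.4 and featureCounts 1.4.4. Whether counting used strand is not given in the sources used here. The deposited values are log2 RPM, in which 0.9 read stands for 0 reads. All values above that were whole reads within a tolerance of 0.01 times the square root of the read count. At high counts this tolerance is too wide to be a check. Totals of 8582493 to 12972366 reads followed. A single read was worth 0.0771 to 0.117 RPM. Of the transcripts to which the table gives a gene, 30.0% lie on the opposite strand.

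Values were transformed to log2(RPM + 1), and the 18179 transcripts that reached 1 RPM in 3 or more libraries were fitted with limma 3.58.1 (lmFit, eBayes with trend; R 4.3.3), two-sided, with Benjamini-Hochberg adjustment. Fold changes on this scale understate those of low genes. Python 3.11.15 with pandas 2.3.3, numpy 2.4.6 and matplotlib 3.10.9 did the rest. The fits were tested on simulated reads with known changes, drawn with less spread than some of these genes show, so power is not inferred from them. Span matching required an overlap of 0.5 of the union.

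The members and gene lists were chosen with earlier results of these data known. All 10 genes, Setd1b, the same-family genes, at most 5 genes past the threshold per direction in each pathway list and its most abundant gene are named. Genes named for cKO 4 and WT 3, such as Plk1, were chosen after their values were seen. Alternatives were other pseudocounts, filters, scalings, eBayes settings, voom on recovered reads, a replicate block, the omission of single libraries and, added after seeing the data, cKO 4 and WT 3 left out together.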

Additional observations from a re-analysis of the deposited data

How the results depend on the processing

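Over 22 alternatives, 1 of the 8 genes fell and 0 rose under each. Mos kept its direction and call in all, with no reversal. Of 219 values for the 10 genes, 207 kept direction and call and 12, none past the threshold, changed sign. The count of transcripts that rose, 683, became 315 with a pseudocount of 5 RPM, 396 without a filter, 428 after quantile normalisation and 443 with voom, and ran from 172 (without WT 2) to 857 (without cKO 4) when each library was left out (379 without cKO 1, 317 without cKO 3, 247 without WT 1). Those that fell, 355, ran from 117 (without WT 2) to 435 (213 without cKO 1, 221 without cKO 3, 153 without WT 1). Without a filter, more transcripts were tested (29375); otherwise the cause was not tested. Centring on the median transcript gave 458 higher and 531 lower, quantile normalisation 428 and 442, and median-of-ratios size factors 510 and 489, the splits moving towards lower. Under these scalings Cdc25b came to -0.035 (centred) and -0.0097 (median of ratios), Gpr12 to -0.076, -0.075 and -0.043, Wee1 to -0.070, -0.049 and -0.041, and Cdc25a to -0.10 (centred) and -0.083 (median of ratios). Other values moved without a change of sign. Among them, Cdk1 came to 0.069 and Pde3a to -0.37 (both centred), and Ccnb1 to -0.072 and Adcy3 to 0.29 (both quantile). Scaling by reads within transcripts gave Fbxo43 0.031. No WT library shares the number of cKO 4, so the replicate block takes cKO 4 out of the comparison. Its fold changes equal those without cKO 4. With the replicate block, Gpr3 was 0.063, Ccnb1 0.17, Fbxo43 0.039, Cdc25a -0.060 and Fbxo5 0.19, Cdc25c passed at 1.39 (limma adjusted p = 0.0112), and 924 transcripts rose and 479 fell. The replicate numbers do not pair the oocytes: the same-numbered deviations correlated at 0.19, 0.29 and -0.13, and not every library correlated best with its own number. The highest correlation between a cKO and a WT library was 0.61, for cKO 4 and WT 3. Leaving out each library in turn gave -0.63 to 0.063 for Gpr3, -0.65 to 0.17 for Ccnb1, -0.17 to 0.057 for Fbxo43, -0.43 to 0.46 for Wee1, -1.05 to 0.19 for Fbxo5, -0.97 to -0.083 for Ccnb2, -0.87 to -0.27 for Wee2, -0.91 to -0.15 for Setd1b, 0.36 to 0.74 for Adcy3, 0.49 to 1.39 for Cdc25c, 0.075 to 0.62 for Cdk2, -0.29 to -0.066 for Adcy9, -0.62 to -0.30 for Pkmyt1, -0.35 to -0.065 for Pde3a, 0.043 to 0.25 for Cdc25b, 0.11 to 0.31 for Cdk1, -0.021 to 0.17 for Gpr12, -0.060 to 0.11 for Cdc25a and -0.33 to 0.020 for Ccnb3. Without cKO 4 and WT 3, Gpr12 was -0.0098, Wee1 -0.054 and Cdc25a -0.091. With 4 and 3 oocytes, the 95% intervals of Gpr3, Adcy3, Wee2, Ccnb1 and Ccnb2 include a change of 2-fold.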

Other observations

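In the libraries cKO 4 and WT 3, marker genes of the oocyte, which were not part of the comparison, went both ways. Of 13 markers tested, 7 were lowest in both libraries of their genotype, as were 25.4% of all transcripts tested, and 1 was lower by at least 1 log2 unit in both, as were 3.64%. Zp2, a zona pellucida glycoprotein, had 751 RPM in cKO 4 and 1033 RPM in WT 3 and between 2307 and 3201 RPM in the other 5 libraries. Nobox, a transcription factor of oocyte growth, had 249.9 RPM in cKO 4 and 436 RPM in WT 3. Zp3, another zona glycoprotein, had 4234 RPM in cKO 4 and 4891 RPM in WT 3, the highest of each genotype, and Oosp1 was likewise highest in these libraries at 1988 and 2887 RPM. Dppa3, a maternal factor of the early embryo, at 10654 and 10362 RPM, and Zar1 at 149 and 228 RPM were also highest there. These genes were chosen after their values were seen.

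Of the 84 pathway genes tested, 8 were lower by at least 1 log2 unit in both libraries, beside 3.64% of all transcripts tested: Wee1, Cdc25c, Fbxo5, Plk1, Prkaca, Ppp2r1b, Ube2c and Btrc. Fbxo5 differed most, by -2.19 and -2.08 units. Plk1, the polo-like kinase of mitosis and meiosis, had 36.6 RPM in cKO 4 and 37.2 RPM in WT 3 against 72.4 to 154 RPM in the other libraries. Ube2c, an E2 enzyme of the APC/C, had 40.0 and 49.5 RPM against 118 to 168 RPM.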
